A study of Homo sapiens with 3 samples.

Results

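Mitosis and spindle genes encode the machinery that takes a cell from G2 through chromosome segregation to cytokinesis. The group examined here holds 40 genes, chosen by name for their known roles as mitotic kinases, spindle checkpoint proteins, kinesins, kinetochore subunits and their partners, and each of the 40 was found among the 51136 genes of the count table. The cells were PANC-1, an established human pancreatic carcinoma line. RNA-seq was done on 3 libraries, 1 from cells with no agent (control), 1 from cells given 200 μM Ginsenoside Rg3 (Rg3), a ginseng saponin, and 1 from cells given 50 μM tamoxifen (TAM), an antiestrogen described in the study as an inhibitor of PKC, both compounds for 24 h. Whether the control cells received a solvent is not given in the sources used here, and each compound was used at a single dose. The question was how the expression profile differs after each compound. Each condition had 1 library, so that differences could not be checked against replicates, and treatment, culture and library preparation cannot be told apart.

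As background, CDK1 bound to cyclin B drives entry into mitosis, PLK1 and the Aurora kinases build the spindle and correct its attachments, and the checkpoint proteins hold back CDC20 until every kinetochore is attached. CDC20 then turns on the anaphase-promoting complex, which marks securin and cyclin B for destruction, so that separase can open the cohesin rings. The transcripts of these genes peak together in G2 and mitosis, mostly through the DREAM and MYBL2-FOXM1 complexes acting at CHR boxes, with NF-Y at CCAAT boxes nearby, and their summed level is widely used as a readout of proliferation.

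The reads counted on genes ranged from 11300766 to 12861693 per library. The 40 genes took 56361 reads in the control library, 0.499% of its total (95% Wilson interval 0.495 to 0.503), 73569 reads or 0.572% (0.568 to 0.576) with Rg3 and 49788 reads or 0.440% (0.436 to 0.444) with TAM. After scaling by TMM, which sets the bulk of genes equal between libraries, the summed level was 4909 CPM (reads scaled to a common library size) for the control, 5109 for Rg3 and 5002 for TAM. Under that scaling the sums lay close together, while single genes lay apart in both directions. In bulk RNA, fewer cells in mitosis and less RNA per cell cannot be told apart. Compared with simple division by each library's total, TMM shifted log2 fold changes by -0.14 for Rg3 and by 0.21 for TAM. Intervals here cover counting error only, since reads are not independent molecules. As a check of the line, the keratins KRT8 (7817 to 15329 reads) and KRT18 (7406 to 13162) were abundant in each library, and the defining markers of leukocytes (PTPRC), endothelium (PECAM1, CDH5) and fibroblasts (DCN, LUM, PDGFRA) had at most 2 reads. The 5 epithelial markers summed to 27484 reads in the control library, 15632 in the Rg3 and 28107 in the TAM library, and 4 of them were lower with Rg3 by the fold limits given below, while EPCAM was low throughout (8 to 26 reads). With TAM, KRT19 (665 to 181 reads, -1.67) and EPCAM (-1.49) were lower and KRT7 (0.68) was higher, behind a sum near that of the control library. The 5 fibroblast markers summed to 1856, 1012 and 737 reads, nearly all COL1A1, the 5 leukocyte markers to 712, 472 and 1138, mostly CD68 with CD14 at 97, 46 and 37, and the 5 endothelial markers to 57 in each, mostly KDR. The part of these differences in the results was not tested.

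The promoters of 4 members are printed because these genes differed in opposite directions with Rg3 under TMM scaling and yet carry the same boxes.
PLK1: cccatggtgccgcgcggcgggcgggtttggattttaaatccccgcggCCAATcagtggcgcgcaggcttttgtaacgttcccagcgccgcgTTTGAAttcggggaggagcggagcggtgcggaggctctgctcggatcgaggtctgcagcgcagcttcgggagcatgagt
CDC20: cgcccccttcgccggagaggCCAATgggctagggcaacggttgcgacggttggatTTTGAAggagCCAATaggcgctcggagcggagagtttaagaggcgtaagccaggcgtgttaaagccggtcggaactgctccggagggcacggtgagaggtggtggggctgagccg
KIF11: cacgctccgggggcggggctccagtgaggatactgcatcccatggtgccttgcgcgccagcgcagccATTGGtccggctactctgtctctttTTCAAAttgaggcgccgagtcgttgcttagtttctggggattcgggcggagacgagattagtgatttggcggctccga
KIF18A: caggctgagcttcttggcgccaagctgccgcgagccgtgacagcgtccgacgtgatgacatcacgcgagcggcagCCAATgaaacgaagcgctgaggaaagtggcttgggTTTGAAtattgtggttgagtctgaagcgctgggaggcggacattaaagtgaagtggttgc
These are RefSeq sequences (GRCh38.p14), 120 bases before to 50 after the gene's start, read 5′ to 3′ along the gene: PLK1 at chr16:23678769-23678938 (+ strand), CDC20 at chr1:43358861-43359030 (+), KIF11 at chr10:92593010-92593179 (+) and KIF18A at chr11:28108107-28108276 (- strand). Capitals mark the CHR letters TTTGAA and the NF-Y letters CCAAT, on either strand (TTCAAA and ATTGG when reversed). PLK1 and CDC20 were the members lower with Rg3, and KIF11 and KIF18A were higher with Rg3 but lower with TAM. The transcripts of PLK1, CDC20, KIF11 and KIF18A hold 57.1%, 57.9%, 38.3% and 37.0% GC. With a trend on transcript composition removed, described further on, their Rg3 values were -0.07, -0.12, 0.22 and 0.27, within the limits. KIF11 (-0.81) and KIF18A (-1.23) were then still lower with TAM. Each window holds both boxes.

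Of the 33 members with a promoter in the RefSeq table (250 bases before to 50 after the start), 23 (69.7%) held TTTGAA, against 15.2% of all 35116 promoters and 9.14% of the 10096 promoters of genes with at least 10 reads in a library. CCAAT stood in 25 (75.8%), against 34.6% and 36.6%, and both boxes in 19 (57.6%), against 5.9% and 3.96%. The E2F letters TTTGGCGC or TTTCCCGC were found in 1 member promoter, that of CENPA (3.03%, against 2.27% of all promoters and 3.69% of those of genes with reads). Among members with a promoter, both boxes occurred in 7 of the 13 that were higher with Rg3, 7 of the 11 that were lower with TAM and 8 of the 14 that passed the fold limits in neither library. A match of letters is a description and not a bound site.

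A gene was counted as higher or lower when its scaled fold was over 1.5 or under 0.67, the limits of the study's methods, among genes with at least 10 reads in either library, and each of the 40 members was compared. With Rg3, 14 members were higher and 2 were lower than in the control library. Over all 16487 genes compared, 25.0% were higher and 19.5% lower by the same limits, against 35.0% and 5.0% of the members. With TAM, 2 members (5.0%) were higher and 12 (30.0%) lower, beside 17.4% higher and 23.8% lower of 16079 genes, so that the share of lower members was not far from that of all genes. The median log2 fold change of the members was 0.38 with Rg3 and -0.15 with TAM, beside 0.04 and -0.02 over all genes compared. No counting interval of a member past the limits held 0. When the exact test of edgeR was asked for as well, at a biological variation set by assumption to 0.2 (coefficient), 0 members were left with Rg3, and CENPF and KIF11 were left with TAM. The share of all genes left by that test is not given here, so that these counts are not shown to be particular to the members.

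**Figure D1:**
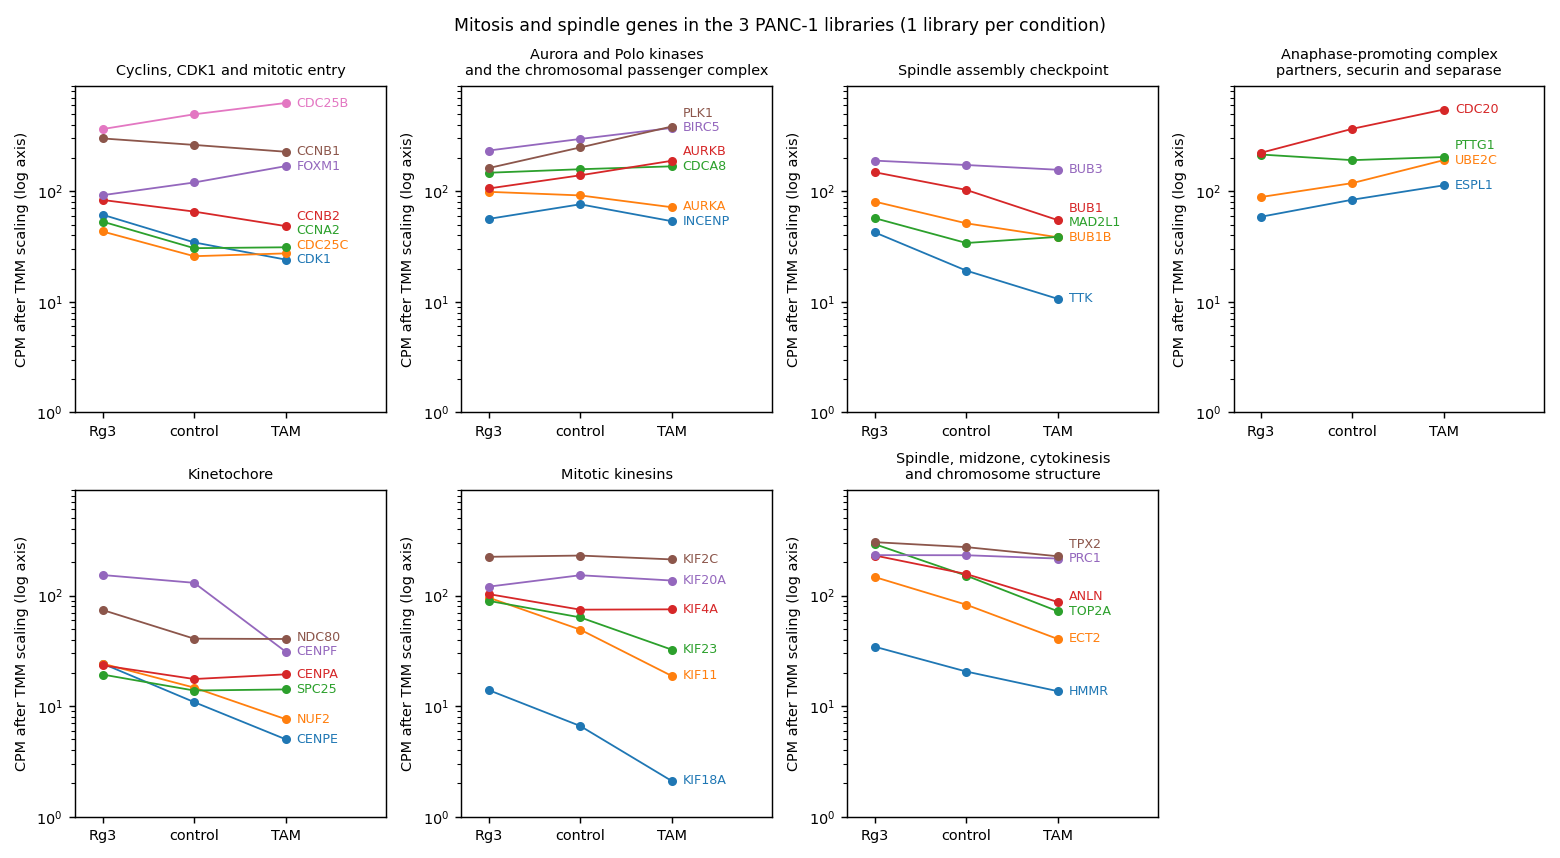
Level of each of the 40 genes in the Rg3, control and TAM libraries, in CPM after TMM scaling on a log axis, with 1 panel per role and 1 line per gene. Most kinetochore, kinesin and checkpoint lines run down from Rg3 to TAM, while PLK1, CDC20, UBE2C, FOXM1 and CDC25B run up.

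Both treated libraries are set against the same control library, so that their values stand side by side and not as independent evidence. In scaled level, 21 of the 40 genes lay in the order TAM, control, Rg3 from low to high, and 9 lay in the order Rg3, control, TAM. In 7 the control library was lowest, and in 3 it was highest. For 8 genes (TTK, CENPE, NUF2, KIF11, KIF18A, HMMR, ECT2 and TOP2A) the fold limits were passed upward with Rg3 and downward with TAM, and PLK1 was lower with Rg3 and higher with TAM. No gene was past the limits in the same direction in both libraries, and 19 passed in neither. The shares of all genes with these orders or paired calls were not counted, so that they are not shown to be particular to the 40 genes. Over all genes with at least 50 reads, Spearman's rho between GC content and log2 fold change also had opposite signs, -0.81 with Rg3 and 0.51 with TAM.

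Members that passed in neither library include the cyclin CCNB1 (3013, 4324 and 2266 reads in the control, Rg3 and TAM libraries), the spindle assembly factor TPX2 (3147, 4376 and 2255) and the midzone bundler PRC1 (2658, 3341 and 2149). Between genes, levels were compared per kilobase of the longest annotated transcript. In the control library the highest were CDC20 (207 CPM per kb), PTTG1 (179), CDC25B (138), UBE2C (130) and CCNB1 (121), and the lowest were CENPE (1.26), KIF18A (1.86), TTK (5.14), MAD2L1 (6.23) and HMMR (6.63). Neighbours in this order cannot be separated beyond a spread between cultures, which 1 library does not give.

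Among the genes of mitotic entry, CDK1, the kinase that phosphorylates most mitotic substrates, had 396 reads in the control library, 883 in the Rg3 and 240 in the TAM library. Its log2 fold change was 0.83 with Rg3 (95% interval 0.66 to 1.00) and -0.52 with TAM (-0.75 to -0.28). CCNA2, the cyclin of S phase and G2, had 351, 765 and 310 reads, higher by 0.80 with Rg3 (0.61 to 0.98) and near the control with TAM (0.03, -0.20 to 0.25). CDC25C, a phosphatase that removes the inhibitory phosphates of CDK1, had 297, 623 and 273 reads, 0.74 higher with Rg3 (0.54 to 0.95). The partner cyclins were flatter, with CCNB1 at 0.19 and CCNB2 at 0.35 with Rg3 and at -0.20 and -0.44 with TAM. CDC25B (5699, 5255 and 6250 reads) and the transcription factor FOXM1 (1378, 1327 and 1678 reads), which drives many genes of this group, had the other order, at -0.44 and -0.38 with Rg3 and 0.34 and 0.49 with TAM, but their Rg3 values turned to 0.21 and 0.12 when a trend on transcript composition, described further on, was removed. In this set of 7 genes, 3 were past the limits with Rg3, each higher, and 0 with TAM. With that trend removed, 1 was past the limits with Rg3 and 0 with TAM. Counts of this set and of the sets below stand beside the shares over all genes. Those were 25.0% higher and 19.5% lower with Rg3, and 17.4% and 23.8% with TAM.

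In the set of Polo and Aurora kinases and the chromosomal passenger complex, PLK1 was the only gene past the limits. PLK1, which works from centrosome maturation to cytokinesis, had 2859 reads in the control library, 2334 in the Rg3 and 3828 in the TAM library. Its log2 fold change was -0.62 with Rg3 (-0.70 to -0.54) and 0.63 with TAM (0.56 to 0.70), just past the limits on either side. AURKA, the centrosomal Aurora kinase, had 1053, 1423 and 714 reads, and AURKB, the Aurora kinase of the inner centromere, had 1600, 1526 and 1876. The passenger subunits BIRC5 (survivin) and CDCA8 (borealin), which target AURKB to centromeres, stayed between -0.35 and 0.33. INCENP, the scaffold that activates AURKB, had 875, 810 and 534 reads and was the only member of this complex with a lower value with TAM (-0.51, -0.66 to -0.35), which did not pass the limit.

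Of the 5 checkpoint genes, 3 were past the upper limit with Rg3 and 2 past the lower limit with TAM. With the trend on transcript composition removed, 0 were past the limits with Rg3, and with TAM 1 was lower and 1 higher. TTK, the kinase MPS1 that starts checkpoint signalling, had 220 reads in the control library, 611 in the Rg3 and 106 in the TAM library, a log2 fold change of 1.15 (0.92 to 1.38) and of -0.85 (-1.20 to -0.51). BUB1, the kinase that recruits checkpoint proteins to kinetochores, had 1181, 2138 and 546 reads, under the limit with Rg3 (0.53) and lower with TAM (-0.91, -1.06 to -0.76). These kinases thus lay highest with Rg3 and lowest with TAM. BUB1B, the CDC20 inhibitor BubR1, had 589, 1160 and 382 reads (0.65 and -0.42), and MAD2L1, which binds CDC20, had 391, 822 and 385 (0.75 and 0.18). BUB3, the adaptor of BUB1 and BUB1B, stood nearest the control library (1983, 2724 and 1557 reads, 0.13 and -0.14).

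Of the 4 genes that act downstream of the checkpoint, CDC20, UBE2C and ESPL1 had the reverse order under TMM scaling. With the trend on transcript composition removed, CDC20 was at -0.12 with Rg3 and 0.13 with TAM. UBE2C was then at -0.32 and 0.56, and ESPL1 at 0.01 and 0.52. CDC20, the activator of the anaphase-promoting complex, had 4215 reads in the control library, 3209 in the Rg3 and 5456 in the TAM library. Its log2 fold change was -0.72 with Rg3 (-0.79 to -0.65), the lowest of the 40, and 0.58 with TAM (0.52 to 0.64), a fold of 1.49 just under the limit. UBE2C, the ubiquitin-conjugating enzyme of that complex, had 1361, 1277 and 1903 reads, -0.42 with Rg3 and 0.69 with TAM (0.59 to 0.79), the highest of the 40 there. ESPL1 (separase), the protease that cuts cohesin, had 963, 847 and 1126 reads (-0.51 and 0.43), while PTTG1 (securin), its inhibitor, had 2194, 3093 and 2030 (0.17 and 0.09).

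Among the 6 kinetochore genes, 3 were past the upper limit with Rg3 and 3 past the lower limit with TAM. With the trend on transcript composition removed, 0 were past the limits with Rg3 and 2 were lower with TAM. CENPF, a large coiled-coil protein of the outer kinetochore, had 1497 reads in the control library, 2208 in the Rg3 and 310 in the TAM library. Its log2 fold change with TAM was -2.07 (-2.25 to -1.89), a fold of 0.239 and the lowest of the 40, while with Rg3 it was 0.23 (0.14 to 0.33). CENPE, the kinesin that moves chromosomes to the spindle equator, had 125, 349 and 50 reads, 1.15 with Rg3 (0.86 to 1.46), a 2.23-fold difference and the highest of the 40, and -1.12 with TAM (-1.62 to -0.63). The microtubule-binding NDC80 complex had unequal values among its subunits. NDC80 had 468, 1066 and 403 reads (0.86 and -0.01), NUF2 had 169, 349 and 76 (0.72 and -0.95), and SPC25 had 159, 278 and 141 (0.48 and 0.03). CENPA, the histone variant of the centromere, had 202, 337 and 193 reads (0.41 and 0.14).

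Kinesins differed by gene. KIF11 (Eg5), which pushes spindle poles apart, had 565 reads in the control library, 1379 in the Rg3 and 187 in the TAM library, a log2 fold change of 0.96 (0.82 to 1.10) and -1.39 (-1.64 to -1.15). KIF18A, which damps chromosome movements at plus ends, had 76, 201 and 21 reads, 1.08 with Rg3 (0.69 to 1.48) and -1.65 with TAM (-2.42 to -0.94), with a wide interval from few reads. KIF23, the centralspindlin motor, had 729, 1289 and 323 reads and was lower with TAM (-0.97, -1.16 to -0.78). The depolymerase KIF2C (2640, 3226 and 2113 reads), the midzone motor KIF20A (1753, 1734 and 1361) and the chromokinesin KIF4A (856, 1484 and 747) passed in neither library, with log2 fold changes between -0.34 and 0.47.

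The last set holds genes of cytokinesis and chromosome structure. TOP2A, the topoisomerase that untangles sister chromatids, had 1738 reads in the control library, 4196 in the Rg3 and 718 in the TAM library, a log2 fold change of 0.94 (0.86 to 1.03) and -1.07 (-1.20 to -0.94). ECT2, the exchange factor that turns on RhoA at the cleavage furrow, had 949, 2115 and 403 reads (0.83 and -1.03), and ANLN (anillin), the furrow scaffold, had 1797, 3314 and 871, a fold of 1.47 with Rg3, just under the limit, and -0.84 on the log2 scale with TAM. HMMR, a spindle-associated protein, had 236, 496 and 136 reads (0.74 and -0.59), the last only just past the limit at a fold of 0.665. Of the 6 genes of this set, 3 were past the upper limit with Rg3 and 4 past the lower limit with TAM. With the trend on transcript composition removed, 0 were past the limits in either library.

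**Figure D2:**
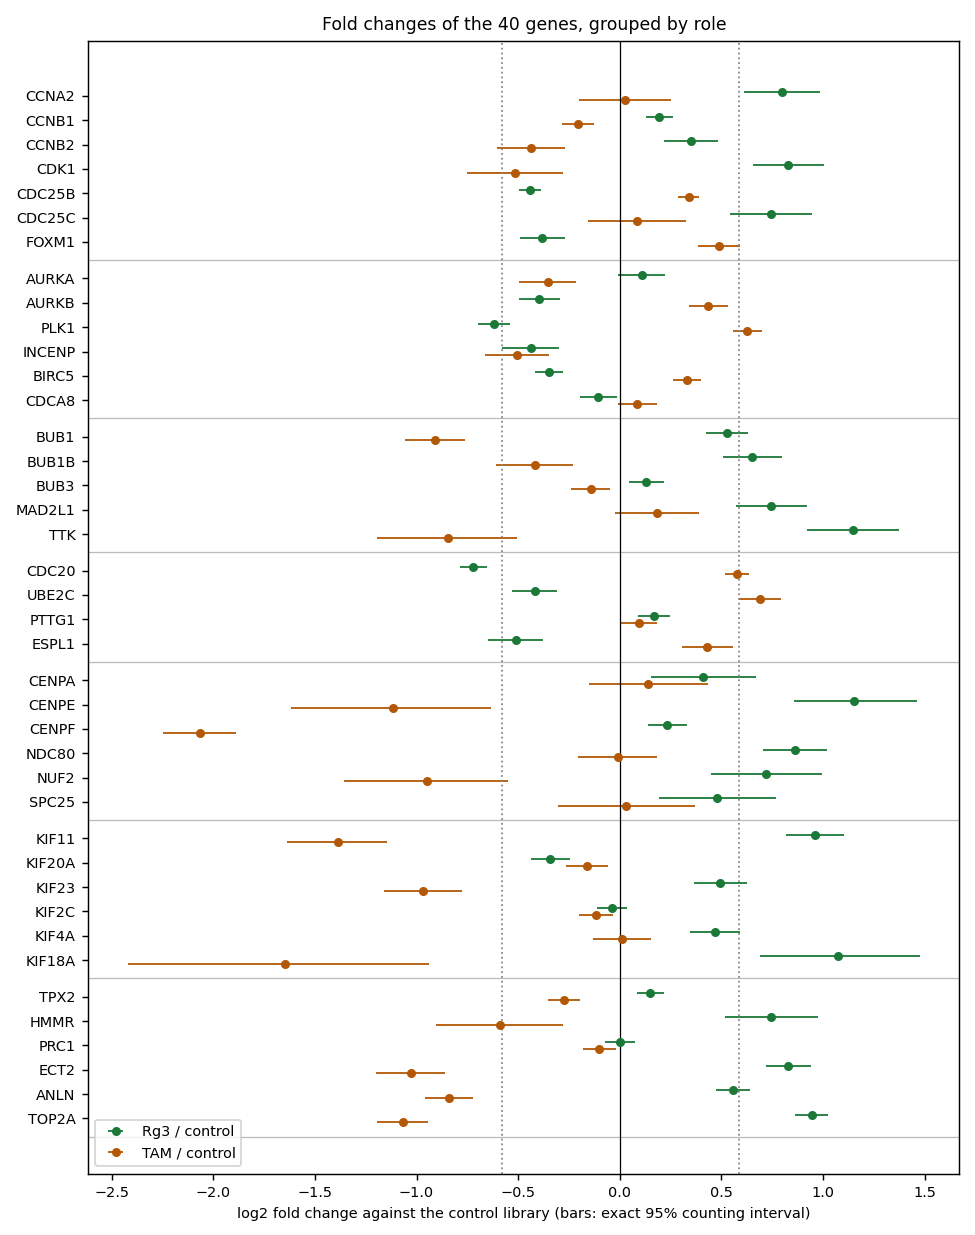
Log2 fold change of each gene against the control library, Rg3 in green and TAM in brown, with exact 95% counting intervals as bars and dotted lines at folds of 1.5 and 0.67, in blocks by role in the order of the text. CENPF (-2.07), KIF18A (-1.65) and KIF11 (-1.39) lie farthest left with TAM, and CENPE (1.15) and TTK (1.15) farthest right with Rg3.

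Base composition varied with these differences. The members' transcripts ran from 35.3% GC (CENPE) to 59.6% (INCENP), with a median of 43.8%, below the median of 48.6% over the genes compared. Across the 40 genes, Spearman's rho between GC content and the log2 fold change was -0.90 with Rg3 and 0.74 with TAM, where all genes with at least 50 reads gave -0.81 (11583 genes) and 0.51 (11022 genes). Genes share their libraries and are not independent replicates, so that these are descriptions of the libraries. Of the 20 members below the median GC content, 13 were past the upper limit with Rg3, and 12 were past the lower limit with TAM. Of the 20 above it, 1 was higher and 2 were lower with Rg3, and 2 were higher and 0 lower with TAM. Shares over all genes of like GC content are not given here, so that this split is not shown to be particular to the members. With transcript length, rho was 0.20 with Rg3 and -0.43 with TAM over the members.

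**Figure D3:**
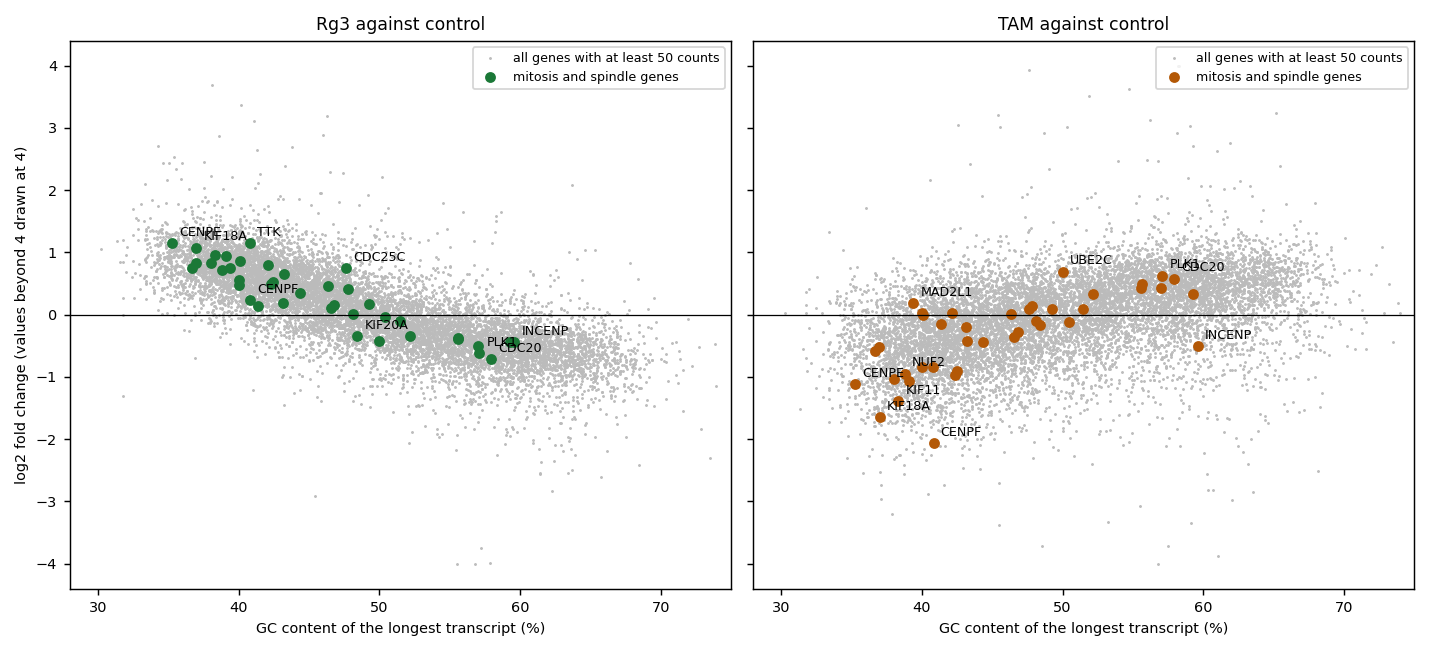
Log2 fold change against the GC content of the longest transcript, in percent, with Rg3 at left and TAM at right. Grey points are all genes with at least 50 reads in either library and coloured points are the 40 members, which follow the grey cloud down with Rg3. With TAM they lie on both sides of its trend. CENPF (-2.07) and INCENP (-0.51) stand there under genes of like GC content, and UBE2C (0.69) and MAD2L1 (0.18) above them.

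When a smooth trend on GC content and length was fitted over all genes and removed, 1 member was higher with Rg3 (CDC25C, 0.67) and 0 were lower, beside 10.7% and 8.56% of 14279 genes, and the median of the members went from 0.38 to 0.08, equal to the 0.08 over all genes. The highest other value was that of TTK (0.53, under the limit), and those of CDK1 (0.11), ECT2 (0.07) and NUF2 (0.08) were near 0. The sign turned for 16 of the 40, of which HMMR (-0.06) had been past the limits. The others include CENPF (-0.33), BUB3 (-0.41), CCNB1 (-0.20), ANLN (-0.09), AURKB (0.12) and INCENP (0.22). CDC20 and PLK1, the members lower with Rg3, came to -0.12 and -0.07. Thus CDC25C alone of the members past the limits with Rg3 was still past them.

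After removal of the trend for TAM, Spearman's rho with GC content was still 0.44 over the members, against 0.08 over all genes with at least 50 reads. By the same fold limits 7 members were lower and 1 was higher, beside 16.7% and 12.6% of 14019 genes, and the median was -0.18, beside -0.01 over all genes. CENPF (-1.28), KIF18A (-1.23), KIF11 (-0.81), NUF2 (-0.80), KIF23 (-0.68) and BUB1 (-0.64) were still past the limit, and INCENP, whose GC content is the highest of the 40, newly passed it (-0.72). TOP2A (-0.43), ECT2 (-0.50), CENPE (-0.39), TTK (-0.49), ANLN (-0.32) and HMMR (-0.24) kept their direction under the limit. PLK1 and UBE2C, higher before, stood at 0.45 and 0.56, while MAD2L1 (0.79) newly passed the limit. With GC content alone removed, a choice made after the data were seen, NUF2 (-0.45) was no longer past the limit, CENPE (-0.62) and TOP2A (-0.59) were, UBE2C (0.66) was past the upper limit again and MAD2L1 (0.64) still was, CENPF was at -1.69, and the median of the members was -0.03, beside -0.02 over all genes. The 7 of 40 members that were lower with the trend removed are a share near that of all genes. In the annotation (GENCODE 29, GRCh38), CENPF lies at chr1:214603195-214664588, KIF11 at chr10:92593286-92655395, KIF18A at chr11:28020620-28108308 and INCENP at chr11:62123973-62153163. The start of KIF11 there lies downstream of the RefSeq window printed above. The starts of PLK1 (chr16:23677656) and KIF18A (chr11:28108308, - strand) lie upstream of their windows, and that of CDC20 (chr1:43358955) lies inside its window.

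**Figure D4:**
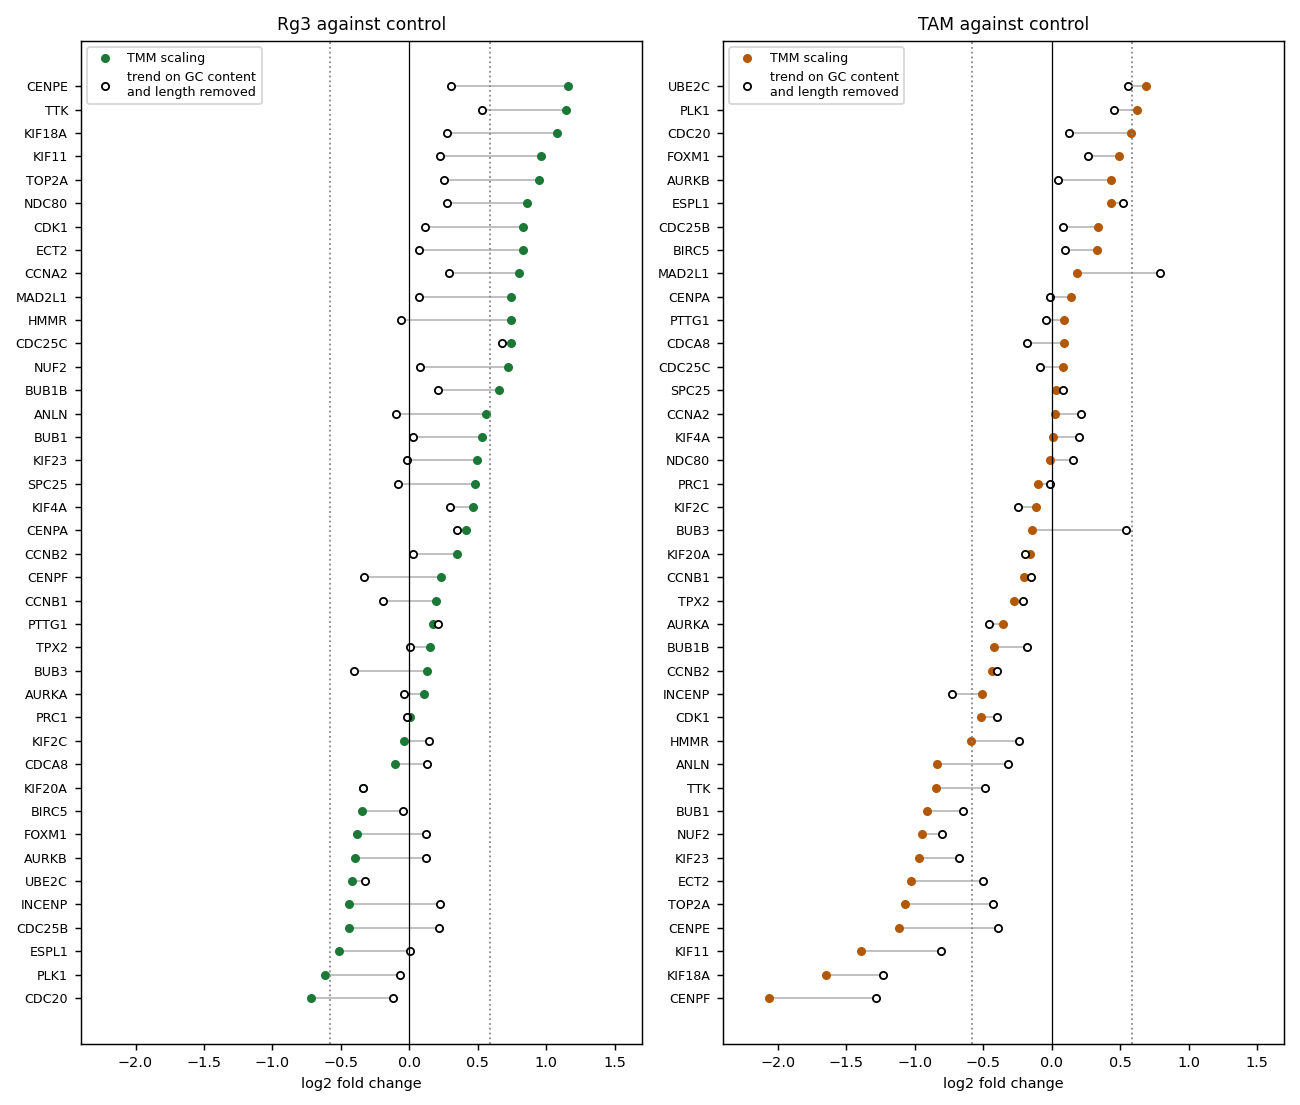
Log2 fold change of each gene under TMM scaling (filled points) and with the trend on GC content and transcript length removed (open points), Rg3 at left and TAM at right, sorted by the filled value, with dotted lines at folds of 1.5 and 0.67. With Rg3 only CDC25C (0.67) is still past a dotted line, and with TAM CENPF (-1.28) and KIF18A (-1.23) lie farthest out.

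Set directly against the Rg3 library, the TAM library was lower in 18 members and higher in 8, beside 35.4% lower and 30.0% higher of 16493 genes. The largest differences were KIF18A (-2.73, 201 against 21 reads), KIF11 (-2.35), CENPF (-2.30) and CENPE (-2.27) on the lower side and CDC20 (1.30), PLK1 (1.25) and UBE2C (1.11) on the higher side. With the trend removed, 12 were lower and 3 higher, beside 24.7% and 15.0%, and of the 18 lower genes 11 were kept, but of the 8 higher genes only UBE2C (0.87) was. BUB3 (0.92) and MAD2L1 (0.70), on the lower side before, made up the other higher ones, and CDC20 and PLK1 came to 0.23 and 0.50. The doses differ (200 and 50 μM), so that this sets 2 libraries side by side and not the potency of the compounds.

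Other genes of mitosis, outside the 40, were described by 5 lists. Of their 122 genes, each of which was compared, Rg3 had 58 higher and 7 lower, and TAM had 13 higher and 48 lower, with a median log2 fold change of 0.56 and -0.33. Over all genes compared, 25.0% were higher and 19.5% lower with Rg3, and 17.4% and 23.8% with TAM. The counts here and those of the 5 lists that follow stand beside these shares. Condensin and cohesin genes, which fold and hold sister chromatids, had 12 of 20 higher and 0 lower for Rg3, and for TAM 1 higher and 15 lower. Other spindle and centrosome genes had 16 of 31 higher and 1 lower for Rg3, and for TAM 0 higher and 17 lower. Other kinetochore genes had 14 of 29 higher and 3 lower for Rg3, and for TAM 6 higher and 7 lower. Further regulators of entry and exit had 12 of 25 higher and 2 lower for Rg3, and for TAM 2 higher and 6 lower, and the anaphase-promoting complex had 4 of 17 higher and 1 lower, then 4 higher and 3 lower. With the trend removed, over 118 genes with a GC value, Rg3 had 8 of the 118 higher and 1 lower, beside 10.7% and 8.56% of all genes, and TAM had 8 higher and 18 lower, beside 12.6% and 16.7%. For the 118 genes together these shares are near or below those of all genes, while single lists differed. Condensin and cohesin genes then had 0 of 17 higher with Rg3. With TAM 6 of the 17 were lower, a larger share than the 16.7% of all genes. Other kinetochore genes had 5 of 28 higher with Rg3, a larger share than the 10.7% of all genes, from few genes. Higher with Rg3 were also 1 of 31 spindle and centrosome genes, 2 of 25 regulators of entry and exit and 0 of 17 genes of the anaphase-promoting complex. Lower with TAM in these lists were 7, 3 and 0, and 2 of the 28 kinetochore genes.

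Among genes past the limits with at least 100 reads in either library, the centromere gene CENPI (190 reads in the control library, 768 with Rg3), the outer kinetochore scaffold CASC5 (180 and 591), CENPK (70 and 229) and CENPL (68 and 221) were the highest with Rg3, at log2 fold changes of 1.69, 1.39, 1.38 and 1.37. CENPI (1.09) and CENPL (0.97) stayed past the limit with the trend removed. The lowest with Rg3 were PKMYT1, a kinase that inhibits CDK1 (-1.07), the chromokinesin KIF22 (-0.91), CENPT (-0.75) and ANAPC15 (-0.72). With the trend removed ANAPC15 (-0.72) was still past the limit, and PKMYT1 (-0.27), KIF22 (-0.28) and CENPT (-0.10) were not. With TAM the lowest by the same rule were SGOL2, which shields centromeric cohesin (235 and 55 reads, -1.89), the cohesin subunit STAG2 (397 and 100, -1.78), the spindle pole gene ASPM (198 and 50, -1.78) and the condensin subunit SMC4 (899 and 241, -1.69). CENPC, under that minimum with 35 and 7 reads and named after its value was seen, was at -2.12. SPC24, the partner of SPC25 in the NDC80 complex, was the highest (281 and 621 reads, 1.35), followed by PMF1 (0.87), PKMYT1 (0.86) and CENPT (0.83). STAG2 (-1.09), SMC4 (-1.04) and ASPM (-0.999) stayed past the limit without the trend, as did SPC24 (1.00) and PMF1 (0.59), and no GC value was at hand for CASC5 and SGOL2.

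Genes of other cell cycle phases were set beside these. Beside the shares of all genes given above (25.0% higher and 19.5% lower with Rg3, 17.4% and 23.8% with TAM), of 32 DNA replication genes Rg3 had 2 higher and 8 lower, and TAM had 4 higher and 1 lower, with medians of -0.09 and 0.10. With the trend removed this list had, for Rg3, 0 higher and 1 lower, and for TAM 2 higher and 0 lower. PCNA, the polymerase clamp, was at 0.26 and -0.09, and RRM2, which supplies deoxynucleotides, at 0.38 and 0.03. Of 19 compared G1 regulators, Rg3 had 3 higher and 2 lower, and TAM had 6 higher and 7 lower, with medians of 0.17 and 0.14, which became 3 higher and 1 lower, and 3 higher and 3 lower, with the trend removed. CCND1 (cyclin D1) was at -0.0047 with Rg3 and -0.18 with TAM, and CDKN1A (p21), the CDK inhibitor, had 948 reads in the control library, 1377 in the Rg3 and 1730 in the TAM library, at 0.21 (0.09 to 0.33) and 1.07 (0.96 to 1.19), or 0.80 and 0.66 with the trend removed. The proliferation marker MKI67 (Ki-67) had 3641, 5377 and 1180 reads, at 0.24 with Rg3 and -1.42 with TAM (-1.52 to -1.32), and at -0.73 with TAM when the trend was removed.

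**Figure D5:**
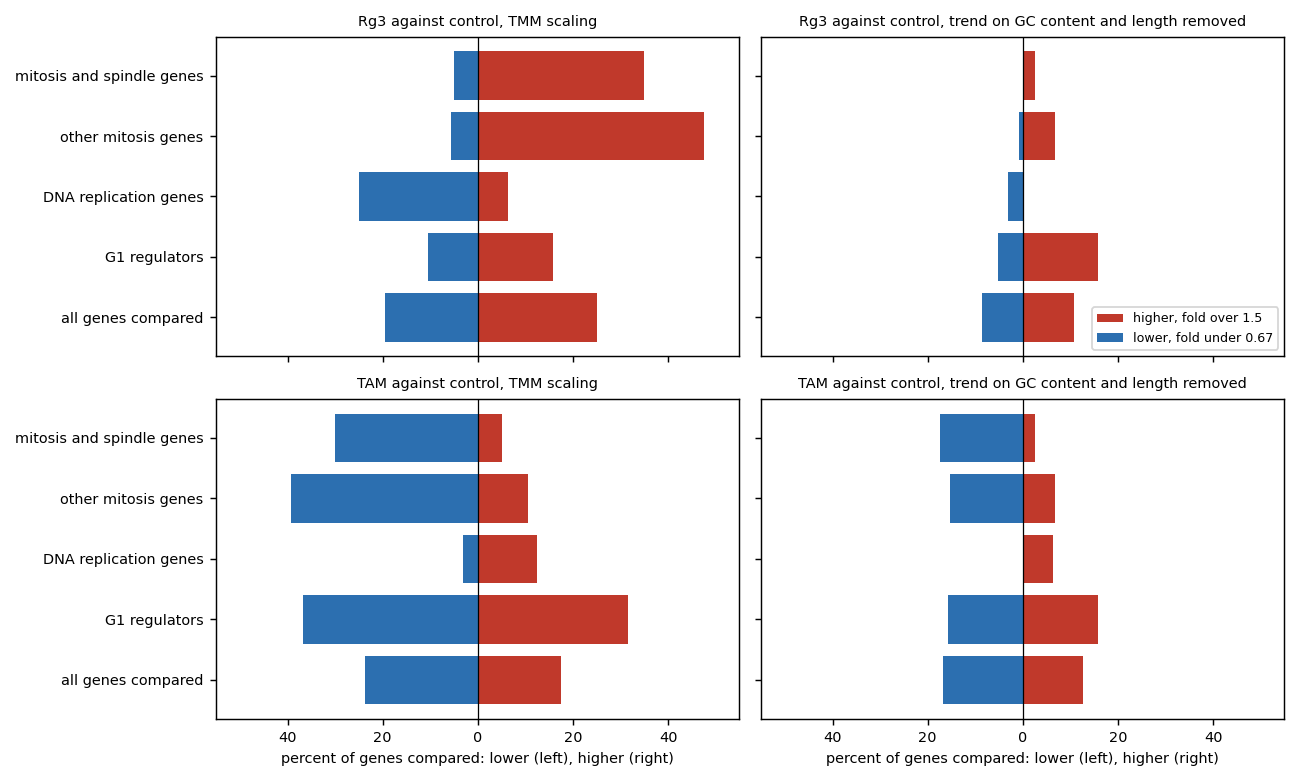
Percent of the genes compared that were higher (right, red) or lower (left, blue) by the fold limits, for the 40 members, the other mitosis genes, DNA replication genes, G1 regulators and all genes, with Rg3 above and TAM below, and at right after removal of the GC and length trend. Under TMM scaling the members have 35.0% higher with Rg3 and 30.0% lower with TAM, and with the trend removed the bars of the members and of all genes are shorter.

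Some counts can share reads with other genes. Exons of 14 of the 40 genes overlap another gene on the opposite strand, and whether counting used strand is not given in the sources used here. Over 5% of the 50-base stretches recur in transcripts of another gene for 8 members. PRC1 shares 63.9% of its stretches, mainly with the overlapping AC068831.7, FOXM1 shares 20.0% with ITFG2, KIF4A shares 15.1%, mainly with its retrocopy KIF4B, and CDC20 shares 9.03% with the pseudogene CDC20P1. CDC20P1 had 488 reads in the control library, 345 in the Rg3 and 511 in the TAM library, an order like that of CDC20. KIF4B had 102, 180 and 71 reads, and the securin copies PTTG2 (68, 71 and 48) and PTTG3P (113, 88 and 62) and the Aurora copy AURKAPS1 (34, 42 and 19) had similar or lower counts. The copies of UBE2C had at most 25 reads each and CCNB2P1 at most 12. CENPE, CENPF, KIF11, TTK and TOP2A share at most 0.416% of their stretches.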

How the data were processed

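RNA-seq (Ion Proton) was done on PANC-1 cells, with 1 library each for control, Rg3 and TAM. The authors deposited raw read counts per gene in 1 table, and the submitters' processing notes name GRCh38. The counting tool, the annotation, the use of strand and any pooling are not given in the sources used here. Library totals were 11300766 to 12861693.

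Groups follow the labels. Counts were scaled with TMM factors (edgeR 4.0.16, R 4.3.3) and each treated library was compared with the control library, and TAM with Rg3, for genes reaching 10 counts in 1 of the pair. A count below 3 was set to 3. Genes with a fold over 1.5 or under 0.67 were counted as higher or lower, with no test and no p-value. Exact Clopper-Pearson 95% intervals were computed (scipy 1.17.1). GC content and length came from the longest GENCODE 29 transcript, found for 86.5% to 87.2% of the genes compared and for all 40 members, and a loess trend (span 0.3) was removed as an alternative. Other alternatives were library totals, DESeq2 1.42.0 size factors, count filters, a fold limit of 2, an exact binomial test and edgeR's exact test with an assumed variation. Scripts were tested on simulated data.

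The members and lists were chosen with earlier results of these data known. Named were all 40 members, the 4 highest and 4 lowest other mitosis genes past the limits in each treated library that reached 100 counts in 1 of the pair, CDKN1A, CCND1, MKI67, PCNA and RRM2, and near-identical copies.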

Additional observations from a re-analysis of the deposited data

How the results depend on the processing

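With 1 library per condition no replicate could be left out, and the interval of each fold change covers counting error only. Differences of culture and library preparation also enter the fold changes and could not be measured. No paired analysis was possible because there was only 1 library for each condition. Filters of 1 and 50 counts, DESeq2 size factors and an added exact binomial test kept every count of members within 1.5 times and each of the 177 values of named genes on its side of the limits. The fit on GC content alone, and all alternatives for the other mitosis genes, were chosen after seeing the data. The cause of the shifts below was not tested.

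Division by library totals left 1 member lower with Rg3, 0 higher with TAM and 4 higher with TAM against Rg3, with medians of 0.52, -0.36 and -0.81 for Rg3, TAM and TAM against Rg3, beside 0.18, -0.23 and -0.42 over all genes, since this choice shifts every gene alike. It also gave 19 members higher with Rg3, and 16 lower with TAM and 26 lower with TAM against Rg3. Among the other mitosis genes it left 4 lower with Rg3 and 5 higher with TAM. A fold limit of 2 left, for Rg3, 3 members higher and 0 lower, for TAM 0 higher and 6 lower, and 3 higher with TAM against Rg3. For the other mitosis genes it left, for Rg3, 15 higher and 1 lower, and for TAM 1 higher and 20 lower. An assumed variation of 0.2 in edgeR's exact test left, for Rg3, 0 members higher and 0 lower, for TAM 0 higher and 2 lower, and 3 higher with TAM against Rg3. The other mitosis genes then had, for Rg3, 1 higher and 0 lower, and for TAM 0 higher and 9 lower. At 0.4 it left 0 in every one of these counts, and 0 lower with TAM against Rg3. Shares over all genes are not given here for library totals, a fold limit of 2 or the assumed variations. The counts under these settings thus describe the processing and are not shown to be particular to the members.

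After removal of the joint trend of GC content and length, Rg3 had 1 member higher and 0 lower, TAM had 1 higher and 7 lower, and 3 were higher with TAM against Rg3, with medians of 0.0751 for Rg3 and -0.26 for TAM against Rg3. The other mitosis genes had, for Rg3, 8 higher and 1 lower, and for TAM 8 higher and 18 lower. With GC content alone removed, 1 member was higher and 0 were lower with Rg3 (median 0.0787), and 1 was higher and 10 were lower with TAM against Rg3 (median -0.19). The other mitosis genes had, for Rg3, 9 higher and 1 lower, and for TAM 21 lower. For the fit on GC content alone, shares over all genes are not given here. Over all 40 members, removal of the joint trend turned the sign of 16 with Rg3, 6 with TAM and 7 with TAM against Rg3. Among named genes past the limits, signs turned for HMMR with Rg3 (-0.0628, and -0.0386 with GC content alone), and with TAM against Rg3 for CDC25B (-0.15 and -0.18), CDKN1A (-0.16 and -0.0376), AURKB (-0.091, with length included) and NDC80 (0.14, with GC content alone).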

Other observations

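Subunits that work in 1 complex can be compared within a library, where the scaling between libraries cancels. The pairs were chosen after the values were seen, and each value is the log2 change of the first gene minus that of the second, with an exact 95% counting interval and no replicate check. In the chromosomal passenger complex, AURKB against its scaffold INCENP was 0.94 with TAM (0.76 to 1.13) and 0.04 with Rg3 (-0.13 to 0.22). BIRC5 against INCENP was 0.84 with TAM (0.67 to 1.01), and CDCA8 against INCENP was 0.59 (0.41 to 0.78). After removal of the GC and length trend these TAM differences were 0.77, 0.82 and 0.55. With Rg3, BIRC5 against INCENP was 0.09 (-0.07 to 0.25) and CDCA8 against INCENP was 0.33 (0.17 to 0.50). The Rg3 differences of AURKB, BIRC5 and CDCA8 against INCENP were -0.10, -0.27 and -0.10 with the trend removed.

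In the NDC80 complex, NDC80 against NUF2 was 0.94 with TAM (0.49 to 1.39) and 0.14 with Rg3 (-0.18 to 0.46), and SPC25 against NUF2 was 0.98 with TAM (0.45 to 1.51). NDC80 against SPC25 was -0.04 with TAM (-0.43 to 0.35) and 0.38 with Rg3 (0.05 to 0.71). SPC24, a subunit of this complex outside the 40, was at 1.35 with TAM against the control library, beside 0.03 for SPC25. Exons of RGS5 overlap NUF2 on the opposite strand. CCNB1 against its kinase CDK1 was -0.64 with Rg3 (-0.82 to -0.45), and -0.31 with the trend removed. With TAM this pair was at 0.31 (0.06 to 0.56), and at 0.25 with the trend removed. AURKA against its activator TPX2 was -0.04 with Rg3 (-0.18 to 0.09) and -0.08 with TAM (-0.24 to 0.08).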
